A study of Mus musculus with 6 samples.

Results

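The genes described here encode the electrolyte, acid-base and water transporters of the intestinal epithelium, together with the peptide signals that set salt secretion. They were chosen by name, as 34 genes, with earlier results of these data known. Each was read from the probe set with the highest mean over all arrays that named that gene alone. Of the 34 genes, 33 were measured among 19933 genes in all; Slc4a7 was not analysed here. Total epithelial cell preparations of the jejunum, the middle part of the small intestine, were profiled from 6 mice with 1 Affymetrix Gene 1.0 ST array each. The 3 mice titled control had the genotype R26-M2rtTA, the doxycycline-activated transactivator M2rtTA at the Rosa26 locus. The 3 mice titled transgenic had the genotype TRE-MSI2::R26-M2rtTA, which adds an MSI2 transgene under the tetracycline-responsive element that M2rtTA activates. All 6 mice had drunk water with doxycycline over 24 hours, so that the controls share both the transactivator and the drug. MSI2 is an RNA-binding protein of the Musashi family, and the comparison, by its labels, asks which transcripts differ 1 day after the start of doxycycline in mice that carry its transgene. Neither the strain nor the age of the mice is stated in the labels. The Rosa26 locus is active in most tissues, so induction need not be limited to the epithelium.

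Transport across the gut epithelium runs in opposite directions. On the villi, enterocytes take up sodium chloride by coupling sodium-hydrogen exchange to chloride-bicarbonate exchange at the brush border, and water follows the salt. In the crypts, chloride is loaded across the basolateral membrane by a cotransporter and leaves through the apical channel CFTR, while basolateral potassium channels recycle potassium and keep the cell negative inside. The peptides guanylin and uroguanylin act from the lumen on a receptor that makes cyclic GMP, which opens CFTR and slows sodium-hydrogen exchange. Carbonic anhydrases supply the protons and bicarbonate that the exchangers carry, and the basolateral sodium pump provides the gradient for all of these steps.

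Expression values are on the log2 scale, so that a difference of 1 is a 2-fold difference. Differences are arrays labelled transgenic minus arrays labelled control, with the standard error (SE) of the limma fit, and a gene rose or fell where its p adjusted over all 19933 genes was under 0.05. The labels were checked on the Musashi genes. Msi1 differed 50.7-fold, with the arrays labelled transgenic higher (difference 5.66 ± 0.26, SE, adjusted p = 0.000818). The Msi2 probe set did not separate the labels (difference 1.03 ± 0.55, SE, adjusted p = 0.257), and control replicate 1 read 11.30, against 9.53 and 9.32 in the other controls and 10.58 to 11.44 in the arrays labelled transgenic. Without that array Msi2 passed (difference 1.66, adjusted p = 0.00958), as it did with array weights (adjusted p = 0.0129). Whether the Msi2 probe set reads the transgene, and why Msi1 differed far more than Msi2, was not tested. All directions are therefore those between the arrays as labelled. Control replicate 1 was also unlike its group in the transport genes, and values without it are given where they change a result. The epithelial marker Epcam had values of 12.60 to 12.87 in all 6 arrays, and 2 of 7 general epithelial markers rose. Array medians lay between 6.42 and 6.46. Sex-linked transcripts in animals without them read 4.07 to 5.06, and no transport gene of the 33 had a value in that range, the lowest being 5.40. Of all 19933 genes, 3771 had every value in or under that range. Shares over all genes given below thus include genes with little or no signal.

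Transport genes were mostly lower in the arrays labelled transgenic. Of the 33 genes, 7 fell and none rose, where 9.65% of all genes fell and 8.97% rose (18.6% in either direction). In the higher direction, 1 gene, Atp1b3, had an unadjusted limma p under 0.05. The 7 were the potassium channel genes Kcnq1 and Kcnn4, the channel genes Clcn2 and Ano6, the basolateral anion exchanger gene Slc4a2, and the carbonic anhydrase genes Car8 and Car13. Means were lower for 28 of the 33 genes, against 45.8% of all genes, and the median difference was -0.50, against 0.02 over all genes. The 33 genes were listed with earlier results of these data known, so such shares describe the list and do not test it. Differences of at least 2-fold in means were found for 10 genes, all lower, where 4.87% of all genes were at least 2-fold lower and 4.19% at least 2-fold higher. In 14 genes every array labelled transgenic lay below every control array, which was so for 17.5% of all genes, and in 1 gene, Atp1b3, every array labelled transgenic lay above, as for 19.5% of all genes. With arrays of 1 number paired in a block, 15 of the 33 fell and 2 rose, where 13.1% of all genes fell and 12.7% rose. That pairing was taken from these same data, as no label says what a number shares. Without control replicate 1, 14 fell and 1 rose, where 14.4% of all genes fell and 13.4% rose. With array weights, which give less weight to arrays that fit the groups poorly, 22 fell and 2 rose, where 17.3% of all genes fell and 18.2% rose. Without control replicate 2, control replicate 3 or transgenic replicate 3, 1 gene fell in each fit, where 2.51%, 2.39% and 2.76% of all genes fell, a share near that of 1 in 33. Without transgenic replicate 1, 3 fell, where 3.57% of all genes fell. In these bulk preparations, fewer cells of a type and less RNA per cell cannot be told apart.

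**Figure D1:**
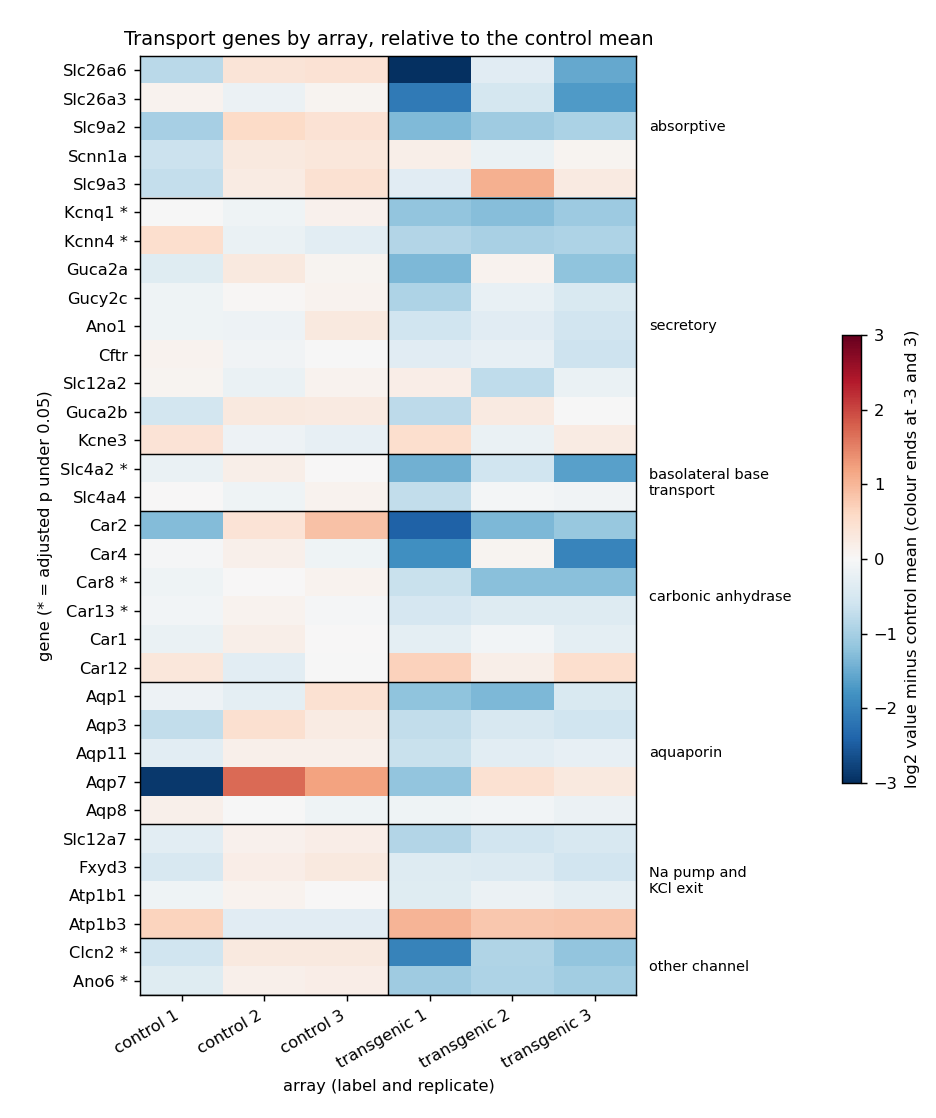
Log2 value of each of the 33 transport genes (rows, grouped by role) in each of the 6 arrays (columns) minus the mean of the 3 control arrays, as colour; an asterisk marks an adjusted p under 0.05, and the value of Slc26a6 in transgenic replicate 1 passes the end of the colour scale. Kcnq1, Kcnn4 and Ano6 are evenly low in the 3 arrays labelled transgenic, whereas Slc26a3, Slc26a6, Car4 and Guca2a are low in replicates 1 and 3 and nearer to the controls in replicate 2.

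Of the absorptive genes, none of 5 passed the test in limma, although 2 had an unadjusted p under 0.05 (Slc26a3 and Slc9a2) and 3 had means at least 2-fold lower. Their median SD over the arrays labelled transgenic was 0.71, against 0.25 for the 33 genes and 0.12 for all genes, although Slc9a2 and Scnn1a had SDs of only 0.203 and 0.201. Slc26a3 encodes the chloride-bicarbonate exchanger DRA of the brush border. Its control values were 11.49, 11.19 and 11.45, and its values in the arrays labelled transgenic were 9.25, 10.85 and 9.68 for replicates 1, 2 and 3. The groups did not overlap, but transgenic replicate 2 lay only a little under the controls. The difference of -1.45 ± 0.40 (SE) missed the threshold (adjusted p = 0.0525) and passed with the replicate block (adjusted p = 0.0489) and without transgenic replicate 2 (adjusted p = 0.00355). Slc26a6, which encodes the related anion exchanger PAT1, had control values of 10.73, 11.94 and 11.97 and transgenic values of 8.41, 11.22 and 10.01. Control replicate 1 lay within the range of the arrays labelled transgenic, so that the groups overlapped. The difference of -1.67 ± 0.74 (SE) did not pass (adjusted p = 0.175), and passed with the replicate block (adjusted p = 0.0226).

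The sodium-hydrogen exchanger genes had differences of opposite sign, and neither passed. Slc9a3 encodes NHE3, which carries most of the electroneutral sodium uptake of the villus. Its control values were 11.33, 12.29 and 12.49 and its transgenic values 11.69, 13.10 and 12.31, so the groups overlapped in part, with the lowest value in control replicate 1 and the highest in transgenic replicate 2. The difference was 0.33 with a 95% interval from -0.75 to 1.40 (adjusted p = 0.674), and without control replicate 1 it was -0.03. Slc9a2, which encodes the brush border exchanger NHE2, had values of 9.46, 11.02 and 10.89 in controls and 9.12, 9.40 and 9.52 in the arrays labelled transgenic. Control replicate 1 sat with the arrays labelled transgenic and the other controls above them. The difference of -1.11 ± 0.42 (SE) did not pass (adjusted p = 0.12), and it passed with the replicate block (adjusted p = 0.0389) and without control replicate 1, at -1.61 (adjusted p = 0.00262). Scnn1a, the alpha subunit of the epithelial sodium channel, differed by 0.02 with an interval from -0.66 to 0.70 (adjusted p = 0.976), and by -0.30 without control replicate 1.

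The RefSeq promoter table (GRCm38.p6) held 24 of the 33 genes, with 30 start sites. The 250 bases before each start were searched on both strands for 7 short motifs, and the share of all 32851 start sites in the table with each was as follows. The TATA box letters TATAAA were found before 12.4%, the GC box GGGCGG before 32.7% and the GATA factor letters AGATAA before 9.99%. The HNF1 letters GTTAAT were found before 6.43%, and the HNF4 letters CAAAGTNCA before 1.19%. The AP-1 letters (TGA, any base, TCA) were found before 6.75% and the E box CACGTG before 6.02%. GC boxes were found before 16 of the 30 starts, E boxes before 5, and HNF4 letters before none. Slc26a3 was among the 2 starts with a TATA box and the 2 with GTTAAT, and its window is shown because it had the lowest GC content of the 30 (chr12:31437969-31438218, plus strand). That content was 38.8%, against a median of 52.4% over the table. Capitals mark motif matches here and in the windows that follow, each ends at the base before the start, and no 2 different motifs overlapped in those shown. This start lies inside the gene model of the annotation.
Slc26a3: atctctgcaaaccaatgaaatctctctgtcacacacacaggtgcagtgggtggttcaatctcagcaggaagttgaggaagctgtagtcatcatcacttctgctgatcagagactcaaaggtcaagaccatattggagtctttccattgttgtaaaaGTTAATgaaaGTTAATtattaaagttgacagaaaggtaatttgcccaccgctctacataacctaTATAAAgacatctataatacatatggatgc

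Among the secretory genes, a short list, 2 of 9 fell, where 9.65% of all genes fell. Both encode basolateral potassium channels. Kcnq1 encodes the pore of the channel that cyclic AMP-driven secretion relies on. Its control values were 10.02, 9.90 and 10.15 and its transgenic values 8.83, 8.74 and 8.94. The groups lay far apart relative to the spread within each, and no array stood out. Kcnq1 was 2.27-fold lower (difference -1.18 ± 0.10, SE, adjusted p = 0.00249). It was the gene of the 33 that passed without each array in turn (highest adjusted p = 0.0179), as 2.03% of all genes did in that direction. Kcne3 encodes the subunit that holds this channel open in the gut, and its values of 10.75, 10.18 and 10.09 in controls overlapped the 10.85, 10.15 and 10.58 of the arrays labelled transgenic. Its difference was 0.19 with an interval from -0.40 to 0.78 (adjusted p = 0.659). Of 8 measured crypt markers, 3 fell (Olfm4, Axin2 and Ascl2, with differences of -3.24, -1.15 and -1.14). The median difference over the 8 was -0.94, and 2 of them, Pcna and Mcm5, had higher means (differences of 0.25 and 0.22). The summed linear level of the 8 was 12425 to 16049 in controls and 6750 to 8689 in the arrays labelled transgenic. Olfm4 weighs heavily in that sum, at 12.35 to 12.68 in controls and 8.62 to 10.05 in the others. The part of crypt cells in the values of the secretory genes was not tested.

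Kcnn4 encodes the calcium-activated potassium channel of the same membrane. It read 10.08, 9.36 and 9.26 in controls and 8.69, 8.58 and 8.63 in the arrays labelled transgenic. Control replicate 1 was the highest array, and the arrays labelled transgenic lay close together below all controls. The gene was 1.91-fold lower (difference -0.93 ± 0.22, SE, adjusted p = 0.0353). The call held without control replicate 1 (difference -0.67, adjusted p = 0.00539), but was lost without any other array (adjusted p = 0.0637 to 0.116) or once sex was fitted (adjusted p = 0.0845). T cells also express this channel, and 7 of 8 lymphocyte markers fell, with a summed linear level of 4049 to 5882 in controls and 831 to 1905 in the arrays labelled transgenic. Their part in the fall of Kcnn4 was not tested.

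CFTR itself and the cotransporter that feeds it did not pass. Cftr read 10.60, 10.41 and 10.50 in controls and 10.16, 10.25 and 9.88 in the arrays labelled transgenic. The groups did not overlap, and the difference was small at -0.40 ± 0.12 (SE, adjusted p = 0.0651, and 0.0677 with the replicate block). Slc12a2, the basolateral cotransporter NKCC1, read 11.17, 10.88 and 11.19 in controls and 11.29, 10.31 and 10.89 in the others. Its groups overlapped, and its difference was -0.25 with an interval from -0.86 to 0.36 (adjusted p = 0.558). Ano1, a calcium-activated chloride channel, had low values of 5.50 to 6.41 and a difference of -0.50 ± 0.15 (SE, adjusted p = 0.0695). Interstitial cells of the gut muscle also express Ano1, and their marker Kit fell (difference -1.01, adjusted p = 0.0131) while the other 7 stromal and muscle markers did not pass. The part of such cells in the Ano1 value was not tested.

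The guanylin system was read at its ligands and its receptor, and none of the 3 genes passed in limma (1, Gucy2c, had an unadjusted p under 0.05). Guca2a encodes guanylin, and its values were 10.98, 11.64 and 11.44 in controls and 10.01, 11.46 and 10.15 in the arrays labelled transgenic. Transgenic replicate 2 was level with the controls, and the other arrays of that group lay below all of them. The difference was -0.82 ± 0.41 (SE, adjusted p = 0.228), and without transgenic replicate 2 it passed (adjusted p = 0.0153). Guca2b encodes uroguanylin and read 13.02, 13.86 and 13.83 in controls and 12.78, 13.83 and 13.55 in the others. Its difference was -0.18 with an interval from -1.01 to 0.65 (adjusted p = 0.777), and each array was lower than the control of its own number by a small amount. Gucy2c, the guanylate cyclase receptor of both peptides, read 11.38, 11.55 and 11.63 against 10.59, 11.30 and 11.07. All its transgenic values lay below all its control values, with a difference of -0.54 ± 0.19 (SE) that missed the threshold (adjusted p = 0.102) and met it with pairs as a block (adjusted p = 0.0388) and without transgenic replicate 2 (adjusted p = 0.045).

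Guca2a and Guca2b are neighbours on the chromosome with no coding gene between them, and they are transcribed towards each other. Their promoter windows are shown because the genes are a ligand pair that share a receptor and differ in their letters. The window of Guca2a (chr4:119637482-119637731, plus strand) held 2 GATA matches and 1 AP-1 match, and that of Guca2b (chr4:119658946-119659195, minus strand) held 1 match to the HNF1 letters.
Guca2a: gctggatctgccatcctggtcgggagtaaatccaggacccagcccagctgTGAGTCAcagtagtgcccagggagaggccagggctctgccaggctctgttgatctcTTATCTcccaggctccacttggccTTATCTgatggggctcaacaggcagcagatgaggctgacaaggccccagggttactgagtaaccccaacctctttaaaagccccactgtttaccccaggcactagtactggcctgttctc
Guca2b: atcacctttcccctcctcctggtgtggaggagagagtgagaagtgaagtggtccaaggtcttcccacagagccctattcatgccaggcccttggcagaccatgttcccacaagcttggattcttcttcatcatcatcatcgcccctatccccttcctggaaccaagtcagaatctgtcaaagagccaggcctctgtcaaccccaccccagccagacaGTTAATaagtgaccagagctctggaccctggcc

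The rule contrasted absorptive with secretory genes. The median difference was -1.11 over the 5 absorptive genes and -0.50 over the 9 secretory genes, a gap of -0.61. Within single arrays, the absorptive median minus the secretory median, each relative to the control mean, was -0.70, 0.42 and 0.31 in the controls and -0.55, -0.08 and -0.38 in the arrays labelled transgenic. The lowest of the 6 values was thus that of control replicate 1, and the groups overlapped. With so few absorptive genes the gap moved with each one left out: it was -0.04 without Slc26a6 or Slc26a3, -0.21 without Slc9a2 and -0.78 without Slc9a3 or Scnn1a. Those without genes other than Slc26a6 were added after the data were seen. Villus enterocyte markers were also lowest in transgenic replicate 1 and low in control replicate 1, with medians of -0.60, 0.34 and 0.25 in controls and -1.18, -0.08 and -0.50 in the arrays labelled transgenic. Of these 12 markers 1 fell (Vil1, difference -0.80, adjusted p = 0.0453), whereas 7 fell with the replicate block and 6 with array weights, and their summed linear level was 62645 to 118113 in controls and 45712 to 92792 in the arrays labelled transgenic. Their part in the values of the absorptive genes was not tested.

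**Figure D2:**
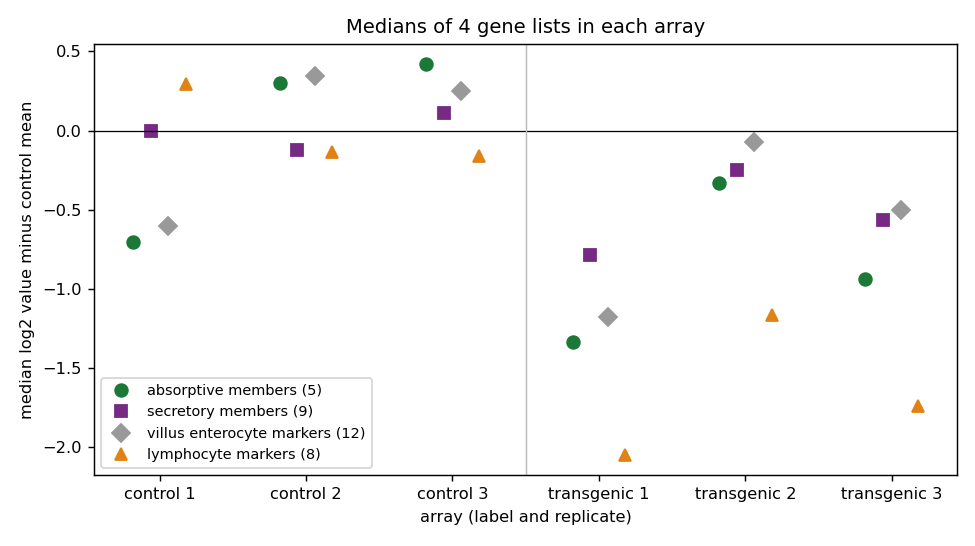
Median log2 value minus the control mean in each of the 6 arrays, for the absorptive genes, the secretory genes, 12 villus enterocyte markers and 8 lymphocyte markers (1 point for each list and array). Absorptive genes and villus markers are low in control replicate 1 and transgenic replicates 1 and 3, with the villus markers of transgenic replicate 2 near 0, whereas secretory medians are -0.12 to 0.11 in the controls and -0.79 to -0.25 in the others, and the lymphocyte markers are at -2.05, -1.16 and -1.74 in the arrays labelled transgenic.

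The channel genes Clcn2 and Ano6, which were placed in neither the absorptive nor the secretory group, both fell. Clcn2 encodes the chloride channel ClC-2 and read 9.87, 10.76 and 10.76 in controls and 8.46, 9.56 and 9.27 in the arrays labelled transgenic. It was 2.58-fold lower, with control replicate 1 nearest to the transgenic values (difference -1.37 ± 0.36, SE, adjusted p = 0.048). That call was lost without control replicates 2 or 3 or transgenic replicates 1 or 3 (adjusted p = 0.111 to 0.158) or once sex was fitted (adjusted p = 0.0967). Ano6 encodes a calcium-activated phospholipid scramblase that also conducts ions, and it read 12.11, 12.62 and 12.65 against 11.39, 11.54 and 11.41. Its transgenic values were tightly grouped and 2.02-fold lower (difference -1.01 ± 0.16, SE, adjusted p = 0.0124). The call was narrowly lost without control replicate 2, control replicate 3 or transgenic replicate 3 (adjusted p = 0.0559, 0.0549 and 0.0574).

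The windows before the starts of Kcnn4 (chr7:24370013-24370262, plus strand) and Ano6 (chr15:95790593-95790842, plus strand) are shown as those of channel genes that fell. Kcnn4 held 1 E box and 1 GC box, and Ano6 held 2 GC boxes. The Kcnn4 start lies inside the gene model of the annotation.
Kcnn4: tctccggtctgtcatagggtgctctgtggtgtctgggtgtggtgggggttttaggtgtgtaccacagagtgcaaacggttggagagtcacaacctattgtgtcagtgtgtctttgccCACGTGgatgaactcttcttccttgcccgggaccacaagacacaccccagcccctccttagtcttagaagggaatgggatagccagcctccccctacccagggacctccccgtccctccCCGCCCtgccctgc
Ano6: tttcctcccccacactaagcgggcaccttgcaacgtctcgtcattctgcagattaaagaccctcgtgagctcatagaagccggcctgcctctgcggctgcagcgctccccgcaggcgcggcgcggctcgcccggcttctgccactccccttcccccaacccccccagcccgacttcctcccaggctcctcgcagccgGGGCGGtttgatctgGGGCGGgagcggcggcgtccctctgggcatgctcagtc

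**Figure D3:**
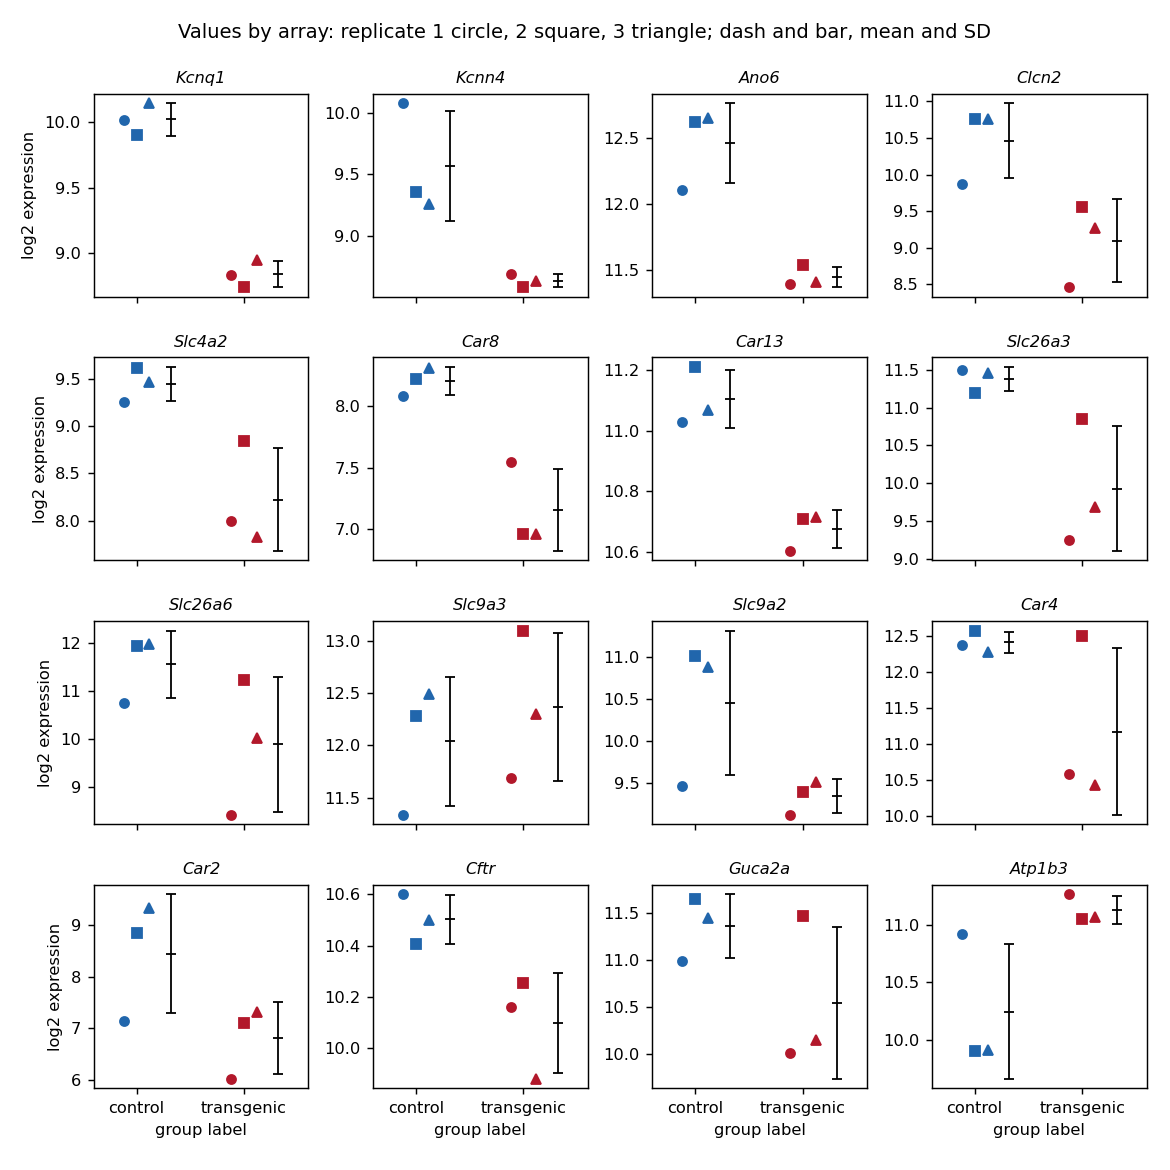
Log2 expression of 16 transport genes in each array, control in blue and transgenic in red, with a symbol for each replicate number and the mean and SD (n = 3) beside each group; the vertical axes differ between panels and do not start at 0. In the panels of the 7 genes that fell, every transgenic value lies below every control value, while Slc26a6, Slc9a3, Slc9a2, Car4, Car2 and Guca2a overlap between groups.

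Base transport across the basolateral membrane was read by 2 genes. Slc4a2 encodes the chloride-bicarbonate exchanger AE2, and its values were 9.25, 9.62 and 9.46 in controls and 7.998, 8.84 and 7.82 in the arrays labelled transgenic. Transgenic replicate 2 was the nearest to the controls, without reaching them. The gene was 2.34-fold lower (difference -1.23 ± 0.27, SE, adjusted p = 0.0307). The call was lost without control replicates 2 or 3 or transgenic replicates 1 or 3 (adjusted p = 0.1 to 0.111). Slc4a4, the sodium-bicarbonate cotransporter NBCe1, differed by -0.30 with an interval from -0.76 to 0.16 (adjusted p = 0.344), and only transgenic replicate 1, at 10.30, lay below all controls.

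Of the 6 carbonic anhydrase genes, also a short list, 2 fell and none rose, where 9.65% of all genes fell and 8.97% rose. Car8 encodes a carbonic anhydrase-related protein without catalytic activity, and read 8.08, 8.22 and 8.32 in controls and 7.54, 6.96 and 6.96 in the arrays labelled transgenic. It was 2.08-fold lower (difference -1.05 ± 0.18, SE, adjusted p = 0.0147), a call lost without control replicates 2 or 3 or transgenic replicate 3 (adjusted p = 0.0634, 0.0668 and 0.0629). Car13, a cytosolic enzyme, read 11.03, 11.21 and 11.07 against 10.60, 10.71 and 10.71. Its fall was small but even (difference -0.43 ± 0.08, SE, adjusted p = 0.0209), and it was lost without control replicates 2 or 3 or transgenic replicates 1 or 3 (adjusted p = 0.0717 to 0.0787) and with an intensity trend and robust estimation (adjusted p = 0.0526).

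The other 4 carbonic anhydrase genes did not pass. Car4, the enzyme anchored to the outer face of the brush border, read 12.38, 12.58 and 12.29 in controls and 10.59, 12.51 and 10.43 in the arrays labelled transgenic. Transgenic replicate 2 was at the control level and the other 2 arrays lay well below it, so the difference of -1.24 ± 0.55 (SE) missed the threshold (adjusted p = 0.174) and met it without transgenic replicate 2 (adjusted p = 0.00185). Car2, the abundant cytosolic enzyme of many tissues, read 7.15, 8.85 and 9.33 against 6.03, 7.10 and 7.32. Control replicate 1 lay among the transgenic values. The difference of -1.63 ± 0.62 (SE, adjusted p = 0.127) became -2.28 without that array (adjusted p = 0.0131), and passed with the replicate block (adjusted p = 0.00705). Car12, a membrane-bound enzyme, was the only carbonic anhydrase gene of the 6 with a higher mean (difference 0.46, adjusted p = 0.178), and it rose with the replicate block (adjusted p = 0.0212). Car1, an enzyme of the colon and of red cells, had low values of 5.40 to 5.86. Car13, Car1 and Car2 lie close together on the chromosome, with no coding gene between Car13 and Car1 and 1 between Car1 and Car2. Their differences of -0.43, -0.22 and -1.63 were unequal.

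None of the 5 aquaporin genes passed in limma (1, Aqp1, had an unadjusted p under 0.05), and all 5 had lower means. Aqp1, a water channel, read 10.43, 10.29 and 11.03 in controls and 9.39, 9.24 and 10.13 in the arrays labelled transgenic. Within each group replicate 3 was the highest, and each array was about as far below the control of its own number, and the difference of -0.999 ± 0.29 (SE) missed the threshold (adjusted p = 0.0638) and met it with pairs as a block (adjusted p = 0.00473). Endothelial cells and red cells also make Aqp1. None of 5 endothelial markers passed, and 3 of them read no higher than sex-linked transcripts in animals without them. None of 3 measured red cell markers passed either, of 7 listed, and the haemoglobin genes were not among the 3. The part of such cells in the Aqp1 value was not tested.

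Aqp7, which carries glycerol as well as water, had the widest spread of the 33 genes. It read 6.97, 11.57 and 11.07 in controls and 8.69, 10.33 and 10.17 in the arrays labelled transgenic. Control replicate 1 differed from the mean of the other controls by -4.35. With it the difference was -0.14, with an interval from -3.17 to 2.89 (adjusted p = 0.957), and without it -1.59 (adjusted p = 0.0752). Aqp3, a basolateral channel for water and glycerol that lies beside Aqp7 on the chromosome with no coding gene between them, was also low in control replicate 1, at 6.26 against 7.48 and 7.24. Its transgenic values were 6.25, 6.51 and 6.39, and its difference of -0.61 (adjusted p = 0.237) became -0.98 without that array (adjusted p = 0.00538). Aqp11, an aquaporin of intracellular membranes, had a difference of -0.42 ± 0.17 (SE, adjusted p = 0.157), and passed with the replicate block (adjusted p = 0.023) and without control replicate 1 (adjusted p = 0.0367). Aqp8, a water channel, read 5.73, 5.58 and 5.46 against 5.47, 5.50 and 5.41, and differed by -0.13 (interval -0.35 to 0.09, adjusted p = 0.396).

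The beta subunits of the sodium pump had differences of opposite sign, and neither passed. Atp1b3, the beta-3 subunit, read 10.92, 9.90 and 9.91 in controls and 11.27, 11.05 and 11.07 in the arrays labelled transgenic. Control replicate 1 lay close under the transgenic values and a whole unit above the other controls. The difference of 0.88 ± 0.28 (SE) missed the threshold (adjusted p = 0.0817) and met it with pairs as a block (adjusted p = 0.03) and without control replicate 1, at 1.22 (adjusted p = 0.00231). A second probe set of this gene gave a difference of 0.84. Atp1b1, the main beta subunit of epithelia, read 13.22, 13.48 and 13.38 against 13.01, 13.18 and 13.08, a difference of -0.27 ± 0.10 (SE, adjusted p = 0.101) that passed without control replicate 1 (adjusted p = 0.0417). Fxyd3, a regulator of the pump, differed by -0.46 ± 0.21 (SE, adjusted p = 0.196), and by -0.70 without that array (adjusted p = 0.00675). Slc12a7, the potassium-chloride cotransporter KCC4, read 10.24, 10.69 and 10.75 against 9.67, 9.98 and 10.08. Its groups did not overlap, and its difference of -0.64 ± 0.17 (SE) just missed the threshold (adjusted p = 0.0509), passing with the replicate block (adjusted p = 0.00885) and without control replicate 1 (adjusted p = 0.0117).

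**Figure D4:**
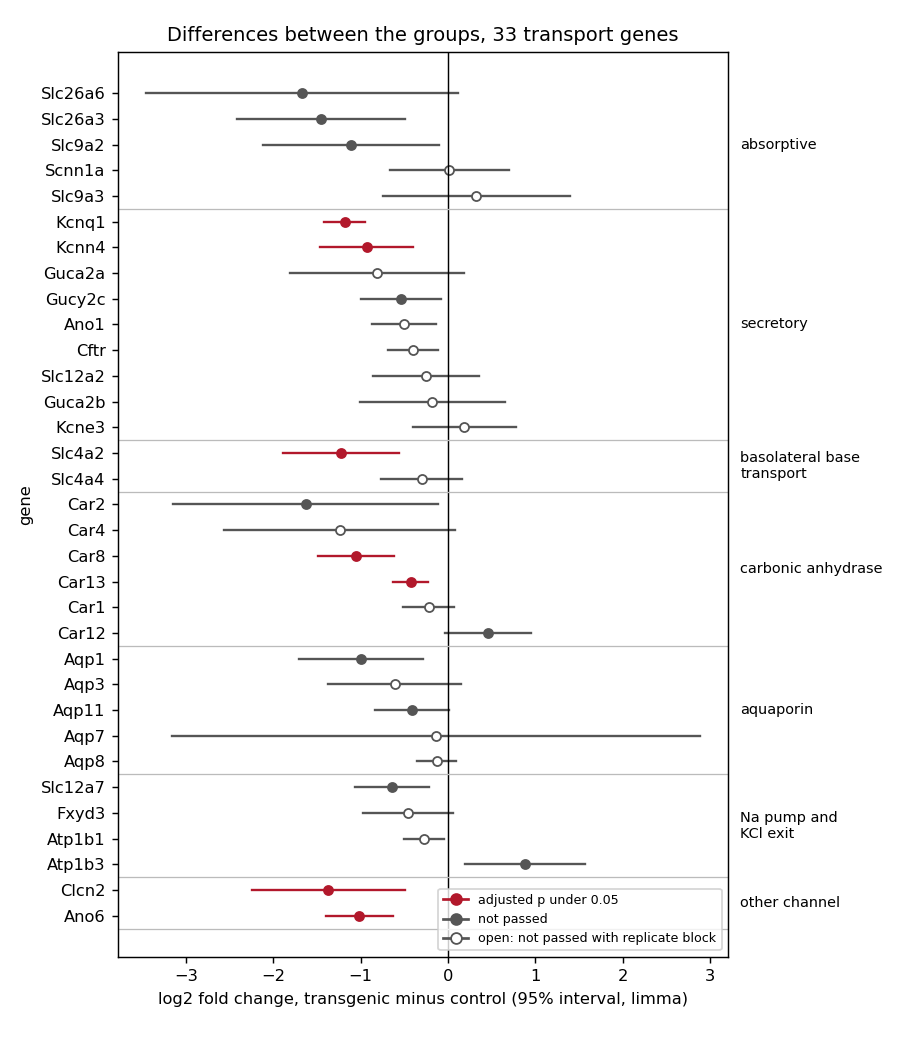
Log2 fold change (transgenic minus control) with its 95% interval for the 33 transport genes, grouped by role; red marks an adjusted p under 0.05, and an open symbol a gene that did not pass with the replicate number as a block. Most points lie left of 0, the narrow intervals of Kcnq1 and Car13 stand clear of it, and the widest interval is that of Aqp7, from -3.17 to 2.89.

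Control replicate 1 differed from the other controls by at least 1 log2 unit in 7 of the 33 genes, against 4.08% of all genes. It was lower in Slc9a2, Slc9a3, Slc26a6, Car2, Aqp3 and Aqp7 and higher in Atp1b3. None of the 9 secretory genes was among them, but some deviated by less than 1 unit in opposite directions. Guca2b and Guca2a differed from the mean of the other controls by -0.82 and -0.56, and Kcnn4 and Kcne3 by 0.77 and 0.62. Its summed villus marker level of 62645 was the lowest of the controls, and the part of villus cells in its transport values was not tested. Among the arrays labelled transgenic, replicate 2 had the highest value for 18 of the 33 genes, against 29.4% of all genes, and replicate 1 the lowest for 18, against 34.9% of all genes.

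Other genes of salt and water transport were read as a list of 93, of which 86 were measured. In it 12 genes fell and 9 rose, where 9.65% of all genes fell and 8.97% rose. The median difference was -0.02. Its median was thus close to that of all genes, unlike that of the 33 genes. However, 10 of the 86 genes read no higher than sex-linked transcripts in animals without them in every array, and none of the 33 did. Many more of the 86 were dim, such as Aqp2, Fxyd7 and Car7, with control means of 6.55, 6.47 and 5.72. Their differences were 0.13, -0.02 and -0.03. Of the 33 genes, 2 had a control mean under 6. The lists thus differ in signal, and their medians cannot be compared as a trait of the 33 genes. The largest falls were those of Kcnj13, the potassium channel Kir7.1 (difference -3.14 ± 0.78, SE, adjusted p = 0.0404), Slc4a5, an electrogenic sodium-bicarbonate cotransporter (-2.36 ± 0.19), and Clic5, a protein of the microvillus base (-2.08 ± 0.46). Kcnj13 read 6.56, 9.22 and 9.64 in controls and 5.26, 5.44 and 5.30 in the arrays labelled transgenic, so that the size of its fall rested on which controls entered. Nr3c2, the mineralocorticoid receptor, fell by 1.83, and Pdzd3, a scaffold that binds the guanylin receptor, fell by 1.66. With sex fitted, at 2 females of 3 controls and 1 of 3 arrays labelled transgenic, the calls of Kcnj13 (adjusted p = 0.073), Clic5 (0.0713) and Pdzd3 (0.102) were lost.

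The largest rises of that list were those of Clic4 (difference 2.52 ± 0.25, SE, adjusted p = 0.00395), of the kinases Sgk2 (2.26 ± 0.56) and Sgk1 (1.33 ± 0.34), of the solute carrier gene Slc4a11 (1.18 ± 0.21) and of Stk39 (0.9997 ± 0.19), a kinase that activates NKCC1. Clic4 read 8.89, 8.69 and 8.80 in controls and 11.79, 10.77 and 11.40 in the arrays labelled transgenic. Slc4a5 and Clic4 passed without each array in turn, with highest adjusted p values of 0.0191 and 0.0278. Kcnj13 and Sgk2 kept their call without control replicate 1 (adjusted p = 0.000645 and 0.00433) and lost it without any other array (adjusted p up to 0.135 and 0.13). Sgk1 kept its call without control replicate 3 (adjusted p = 0.0125) and lost it without any other array (up to 0.137). Both kinase calls were lost with sex fitted (adjusted p = 0.0869 for Sgk2 and 0.0597 for Sgk1). The calls of Clic5, Nr3c2, Pdzd3, Slc4a11 and Stk39 were each kept without some arrays and lost without others. Their highest adjusted p values with 1 array left out were 0.107, 0.0864, 0.146, 0.0634 and 0.0805.

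Scaffolds that tether NHE3 at the brush border differed among themselves, and neither Slc9a3r1 nor Pdzk1 passed. Slc9a3r1, the scaffold NHERF1, read 11.41, 12.50 and 12.49 in controls and 10.56, 11.33 and 11.19 in the arrays labelled transgenic. Its groups did not overlap, by a small margin at control replicate 1, and the difference of -1.10 ± 0.35 (SE, adjusted p = 0.0808) passed with the replicate block (adjusted p = 0.00629) and without that array (adjusted p = 0.01). Pdzk1, which binds the same exchanger, read 7.56, 10.43 and 10.54 against 6.24, 8.02 and 7.38, a difference of -2.29 ± 0.89 (SE, adjusted p = 0.132) that passed with the block (adjusted p = 0.013) and without control replicate 1 (adjusted p = 0.00844). Slc9a3r2, the scaffold NHERF2, differed by -0.01 (adjusted p = 0.966), and Ezr, the linker ezrin, by 0.41 with every transgenic value above every control value (adjusted p = 0.25); both were named after their values were seen. Prkg2, the cyclic GMP-dependent kinase downstream of the guanylin receptor, differed by -0.30 (adjusted p = 0.582). The sodium channel subunits Scnn1b and Scnn1g had values of 4.84 to 5.17 in all arrays, at or little above the range of sex-linked transcripts in animals without them. Pde5a and Adcy6 were also named after their values were seen. Pde5a, which breaks down cyclic GMP, read 10.57, 10.65 and 10.64 against 9.58, 9.59 and 9.60 (difference -1.03 ± 0.07, SE, adjusted p = 0.0014). Adcy6, which makes cyclic AMP, read 10.43, 10.35 and 10.52 against 9.11, 9.15 and 8.78 (difference -1.42 ± 0.12, SE, adjusted p = 0.0026), and both passed without each array in turn.

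**Figure D5:**
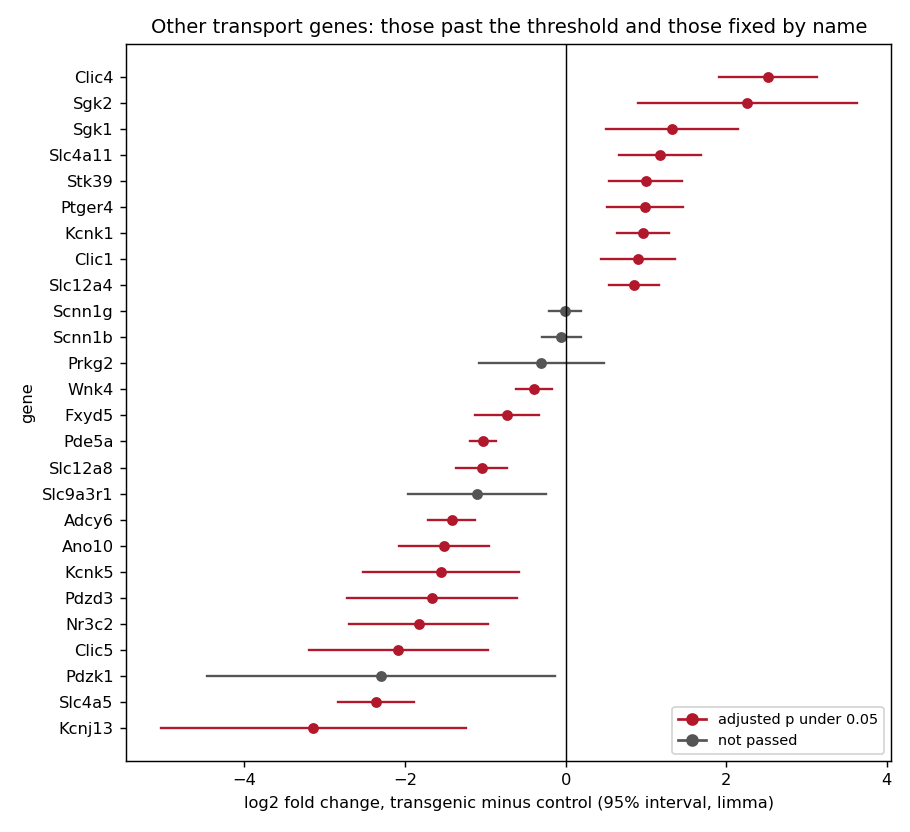
Log2 fold change (transgenic minus control) with its 95% interval for the 21 genes of the wider transport list with an adjusted p under 0.05 (red) and for 5 further genes named whatever their value (grey). Clic4 and Sgk2 lie farthest to the right, Kcnj13 and Slc4a5 farthest to the left, and Kcnj13 and Pdzk1 have the widest intervals.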

How the data were processed

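Each of 6 jejunal epithelial samples gave 1 array. The authors deposited log2 expression values per probe set, with a column for each array and none pooled; per the submitters' processing notes Partek and RMA were used, with no versions or settings given. RMA normalizes between arrays and compresses small changes of dim probe sets. No build is given in the sources used here. The number of arrays limits the precision.

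Of 28350 probe sets, 21780 named 1 gene, 1618 named several and 4952 had no name here. Gene identifiers gave current symbols for 21689 (RefSeq GRCm38.p6), and the probe set with the highest mean stood for each of 19933 genes. The test was limma (version 3.58.1, R version 4.3.3), fitted by lmFit with a term for group, moderated by eBayes, two-sided, and adjusted by Benjamini-Hochberg over all genes. The labels call the arrays biological replicates and do not say how the mice were housed or paired.

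Roles, lists and members were chosen with earlier results of these data known. All 33 measured members were named; of the wider list, the 5 largest rises and falls past the threshold and 6 measured genes whatever their value; Slc9a3r2, Ezr, Pde5a and Adcy6 were added after their values were seen. Deviations from group means correlated by 0.52, 0.41 and 0.13 for arrays numbered 1, 2 and 3, so the numbers were treated as pairs from the data alone; no label says what a number shares. On simulated data for this comparison with 19933 genes, 72 of 100 genes changed by 1 log2 unit and 91 of 100 changed by 2 were recovered, with 10 false calls. The simulated noise was independent between genes and arrays, with the spread of all genes. The 33 genes had median SDs of 0.31 in controls and 0.25 in the arrays labelled transgenic, against 0.13 and 0.12 for all genes. That recovery thus does not carry over to them. Alternatives were the replicate block, sex as a block (read from Xist and Y-linked genes), 2 filters, other normalizations, variance models, array weights and leaving out each array.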

Additional observations from a re-analysis of the deposited data

How the results depend on the processing

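Counts moved with the fit. Genes called higher and lower over all genes, 1787 and 1923, were 3630 and 3442 with array weights and 1068 and 1091 with sex as a block, and ranged from 476 to 2663 and from 476 to 2879 with 1 array left out. Members called lower, 7, were 15 with the replicate block, 22 with array weights and 1 at an adjusted p under 0.01, and 1 to 14 with 1 array left out (1 without control replicate 2, control replicate 3 or transgenic replicate 3). With only genes of a mean of at least 5 or 6 kept, 9 and 10 members were lower, as were 1990 and 1971 of all genes kept. Members called higher, 0 in limma (5 of the 33 had higher means), were 2 with the replicate block, 2 with array weights and 0 to 1 with 1 array left out. Other transport genes called higher, 9, and lower, 12, were 5 and 7 with sex as a block, and 20 were lower with array weights; with 1 array left out they ranged from 3 to 8 and from 4 to 20. The gap between absorptive and secretory medians, -0.61, was -0.0445 without Slc26a6 or without Slc26a3 (the latter added after seeing the data) and -0.82 to -0.31 with 1 array left out. Signs turned only for differences that never passed: Slc9a3 (-0.0614 with array weights, -0.0411 to 0.67 with 1 array left out), Scnn1a (-0.18 with array weights, -0.0426 with sex as a block), and Scnn1g (0.0203 with array weights, 0.0153 with arrays centred on their median). With 1 array left out, Scnn1a ranged from -0.30 to 0.19, Slc12a2 from -0.48 to 0.0079, Guca2b from -0.45 to 0.12, Aqp7 from -1.59 to 0.71, Scnn1b from -0.13 to 0.0003 and Scnn1g from -0.0618 to 0.0518. The replicate block changed no other call of a member than those given. Fits with 1 array fewer hold fewer degrees of freedom, and dim genes such as Car1 and Aqp8 are compressed by the array's background.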
